A study of Mus musculus with 2 samples.

Results

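Cycling interstitial progenitor nuclei were taken from the testis of the mouse embryo at E14.5 as the 400 nuclei with the highest share of their RNA in 7 cell cycle genes, among 2000 nuclei that ranked highest for genes of the interstitial progenitors. The deposited matrix held 9833 barcodes called as nuclei, all of which were also found in the fragment list of the ATAC library, so the members are 400 of 9833. Of these barcodes, 9374 had 2000 to 50000 unique RNA molecules (UMIs), 8531 of those also had under 10% mitochondrial UMIs, 7492 also had over 500 transposase cuts in peaks, and 6691 also had at most 1 UMI in the 5 contractile genes *Acta2*, *Myh11*, *Cnn1*, *Actg2* and *Tagln*. These 6691 nuclei were ranked by the share of their UMIs in *Tacr3*, *Plcxd3*, *Adamts5*, *Ptpro*, *Col25a1*, *Tafa2* and *Adam23*, and the highest 2000 were kept. Within the 2000, the ranking by the share of *Mki67*, *Top2a*, *Aspm*, *Knl1*, *Neil3*, *Ckap2l* and *Cenpf* gave the 400 members, which were thus chosen by their own RNA, and the other 1600 nuclei, called the other progenitors here, served as the comparison.

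All nuclei came from whole testes of embryos from homozygous *Nr5a1-cre* mice crossed with homozygous *Rosa-tdTomato* females. Every embryo thus inherited the same genotype at these loci by design, *Nr5a1* being the gene whose control elements drive Cre in this line. Whether Cre had recombined the reporter locus in a given nucleus was not examined. RNA and open chromatin (ATAC, a transposase that cuts accessible DNA) were read from the same nuclei with the 10x multiome assay, in 1 RNA library and 1 ATAC library. The labels and methods do not say how many embryos the libraries hold. Nuclei of one library are not replicates, so no test between animals was possible, and every interval is an exact 95% interval that covers counting error only.

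The fetal testis interstitium lies between the cords of Sertoli and germ cells, and holds androgen-producing fetal Leydig cells together with mesenchymal cells that include their progenitors. Proliferating cells copy their DNA in S phase, under E2F transcription factors that switch on replication and G1/S genes, and after G2 divide in M phase. Genes of the spindle, kinetochore and cytokinesis often carry a CCAAT box and a CHR element. Through the CHR element the DREAM complex represses them in quiescence and G1, and MuvB with B-MYB and FOXM1 activates them in G2 and M. Many of the transcripts are made in a single part of the cycle, so a nucleus caught in S phase differs in its RNA from a nucleus caught in G2 or M.

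The members held 4362689 UMIs and the other progenitors 12176916. A member nucleus had a median of 9273 UMIs and 3409 genes, against 6211 UMIs and 2645 genes in the other progenitors, a ratio of 1.49 in UMIs. Mitochondrial genes took 2.68% of the UMIs of members and 2.92% in the other progenitors. The top 6% of nuclei by a doublet score (Scrublet) included 26 members, or 6.50%, and 54 other progenitors, or 3.38%. Markers of other cell types were not higher in members for most types: the summed markers had a ratio of members to other progenitors of 0.63 for germ cells, 0.62 for Leydig cells, 0.80 for Sertoli cells, 0.68 for endothelium, 0.75 for erythroid cells, 0.83 for pericytes and 0.89 for contractile cells. The ratio was 1.11 for testicular epithelium and 1.25 for mesonephric mesenchyme. For immune cells the ratio was 2.01 (1.45 to 2.78), on 67 UMIs in members and 93 in the other progenitors, which is 15.4 against 7.64 CPM. Against others matched on UMIs, these ratios were 0.95, 1.12 (0.97 to 1.28) and 2.15 (1.39 to 3.41). More than 3 UMIs in the Sertoli, germ, Leydig, endothelial, immune and erythroid markers together were found in 77.5% of members and 71.6% of the other progenitors, whose depths differ as given above. What part these markers and scores have in the differences below was not tested.

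The cycle genes chose the members, so their values describe the rule and are no finding. A member had at least 5, in the median 32 and at most 124 UMIs in the 7 genes together, and another progenitor 0, 1 and 49. As a share of all UMIs, members lay between 0.159% and 1.54% with a median of 0.331%. The last member had 8 of 5047 UMIs in these genes, and the first nucleus left out had 13 of 8246, which is 0.159% and 0.158%. The cut does not fall in a gap, since 42 members and 37 other progenitors lay within 1.2 times the share at the cut, while 534 of the other progenitors had no UMI of any of the 7 genes. *Top2a*, the topoisomerase that untangles replicated DNA, had 0, 9 and 32 UMIs per member (lowest, median and highest) and 0, 0 and 20 per other progenitor. *Mki67*, the proliferation antigen that coats mitotic chromosomes, had 0, 6 and 35 UMIs per member and 0, 0 and 18 per other progenitor. In counts per 1000000 UMIs of the group (CPM), *Top2a* stood at 901 in members and 85.9 in the other progenitors, *Mki67* at 625 and 88.9, *Knl1*, a kinetochore scaffold, at 566 and 36.6, and *Aspm*, a spindle pole protein, at 361 and 31.6. *Cenpf*, a kinetochore protein, stood at 357 and 53.4, *Neil3*, a DNA glycosylase, at 371 and 21.6, and *Ckap2l*, a spindle protein, at 137 and 6.98. Together the 7 genes took 3316 CPM in members, 325 in the other progenitors and 102 in 300 nuclei ranked highest for Leydig genes.

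The label names interstitial progenitors, and the markers of the interstitium were present in members. Among 32 interstitial genes, the 31 with at least 100 UMIs in both groups together stayed within 2-fold of the other progenitors, 12 higher and 19 lower, and the sum of the list stood at 16964 CPM in members and 17073 CPM in the other progenitors, a ratio of 0.99 (0.985 to 1.0). *Nr2f2*, the orphan nuclear receptor of non-steroidogenic interstitial cells, stood at 519 and 491 CPM, a ratio of 1.06 (1.01 to 1.11), and at 53.8 CPM in Leydig-ranked nuclei. *Pdgfra*, a growth factor receptor, stood at 548 and 581 CPM, *Tcf21* at 48.1 and 49.6 CPM and *Wnt5a* at 344 and 362 CPM. *Gata4* was at 669 and 612 CPM and *Wt1*, also a Sertoli gene, at 133 and 114 CPM. The largest departure among the 31 was *Ebf1*, a transcription factor, at 381 and 558 CPM, a ratio of 0.68 (0.65 to 0.72). *Ebf2* had too few UMIs for the count (36 and 24), and its 36 UMIs came from 1.0% of the members. The progenitor genes used in the ranking were somewhat lower in members, at 5048 CPM against 5982 CPM, with 8, 45 and 262 UMIs per member (lowest, median and highest) and 6, 39 and 302 per other progenitor.

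**Figure D1:**
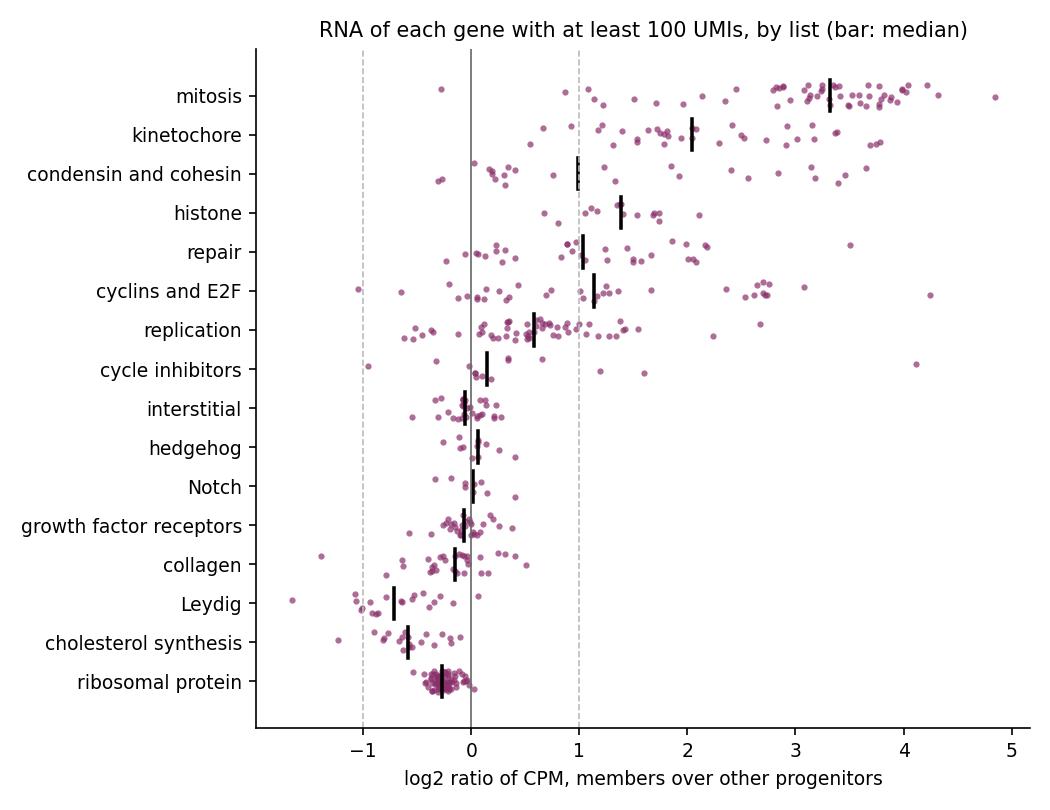
Log2 ratio of CPM in members over the other progenitors for every gene with at least 100 UMIs in both groups together, one point per gene, in 16 lists named on the left, with a black bar at each list's median and dashed lines at 2-fold. Mitosis genes lie far to the right with a median of 3.32, replication genes near 0.58, interstitial genes around -0.06 and Leydig genes around -0.72.

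Of 10524 genes with at least 100 UMIs in both groups together, rule genes left out, 347 stood at least 2-fold higher in members (3.30% of the genes) and 147 at least 2-fold lower (1.40%). The lower genes depended on the choice of nuclei: they numbered 513, against 372 higher, with 200 members, and 37, against 279 higher, among nuclei with at most 3 UMIs of other types. The median log2 ratio of all 10524 genes was -0.08, the zero point against which the lists below can be read. Because the rule used cell cycle RNA of these same nuclei, the counts describe the contrast and test nothing. Of the 347 genes, 162 belong to the lists described below and 185 to none of them. The highest ratio among genes with at least 50 CPM was that of *Pif1*, a DNA helicase gene at chr9:65587160-65595967 in mm10, at 52.0 against 1.48 CPM, or 35.2 times (21.8 to 60.5). *Depdc1b* stood at 119 against 4.02 CPM (29.6 times) and its relative *Depdc1a* at 272 against 12.0 CPM (22.7 times). *Cdc25c*, the phosphatase that releases CDK1 at entry into mitosis, was 28.7 times higher at 75.4 against 2.63 CPM. *Lockd*, a long non-coding RNA gene at chr6:134929092-134956798 next to *Cdkn1b*, was 25.1 times higher at 237 against 9.44 CPM. *Arhgap19*, a GTPase-activating protein, followed at 22.1 times, *Kif23*, a kinesin of the central spindle, at 19.9 times, *Ccnf* at 19.0 times, *Kif18b* at 18.6 times and *Gas2l3* at 17.6 times. *Cdkn3*, *Kif14*, *Kif11*, *Kif22* and *Kifc5b* closed the leading 15 at 17.3, 16.3, 15.8, 15.8 and 15.5 times, the last being uncertain, since it is nearly identical in sequence to *Kifc1*. *Cdc25c*, *Lockd*, *Kif22* and *Kifc5b* overlap a gene on the opposite strand, and neither labels nor methods say whether counting used strand.

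Mitosis genes formed the largest block, though the rule genes themselves include spindle and kinetochore genes. Of 56 spindle, kinesin, mitotic kinase and cytokinesis genes with enough UMIs, 54 stood at least 2-fold higher in members and none lower, where 3.30% of all genes did so, and their median log2 ratio was 3.32. The summed list took 9974 CPM in members and 1400 in the other progenitors, 7.13 times more (7.0 to 7.25). The 2 exceptions were *Tubb4b*, a tubulin, at 1.82 times and *Kif21a*, a kinesin also of non-dividing cells, at 0.82 times. *Diaph3*, a formin that builds actin for the cleavage furrow, gave the most UMIs of the list and stood at 1361 against 268 CPM (5.08 times, 4.86 to 5.30). *Kif15* and *Kif11*, the kinesins that hold spindle poles apart, stood at 503 against 44.8 CPM (11.2 times) and at 491 against 31.0 CPM (15.8 times). *Aurkb*, the kinase of the chromosomal passenger complex, stood at 44.7 against 2.71 CPM (16.5 times). *Ckap5*, a microtubule polymerase that non-dividing cells also use, was 3.28 times higher at 628 against 191 CPM.

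Kinetochore and centromere genes were also higher in members. Of 35 genes, 32 stood at least 2-fold higher and none lower, with 5104 CPM in members and 1078 CPM in the other progenitors for the list, or 4.73 times more (4.63 to 4.84). *Cenpe*, the kinesin that carries chromosomes to the spindle equator, stood at 641 against 85.2 CPM (7.52 times), and *Cenpa*, the centromeric histone, at 172 against 13.3 CPM (12.9 times). *Cenpp* was 5.64 times higher at 841 against 149 CPM. Chromosome structure genes were divided. Of 24 condensin and cohesin genes, 12 stood at least 2-fold higher, and the sum was 1.61 times higher. *Esco2*, the cohesin acetyltransferase of S phase, was 12.6 times higher at 124 against 9.85 CPM, *Sgo2a*, a protector of cohesin, 11.0 times and *Ncapg*, a condensin subunit, 9.07 times. The cohesin subunit genes *Stag1* at 1.26 times, *Smc3* at 1.12 times and *Smc1a* at 1.16 times, and the loader *Nipbl* at 1.14 times, stayed close to 1, and *Esco1* stood at 0.81 times.

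Replication genes were higher by far less. Of 55 genes of licensing, replication forks and nucleotide supply, 48 stood higher and 11 at least 2-fold higher, and the list took 4200 CPM in members against 2543 CPM in the other progenitors, 1.65 times more (1.62 to 1.68), with a median log2 ratio of 0.58. *Pola1*, the catalytic subunit of the polymerase that starts each strand, stood at 645 against 392 CPM (1.65 times), and *Prim2*, its primase partner, at 266 against 157 CPM (1.69 times). *Atad2*, a chromatin ATPase, was 2.67 times higher at 522 against 195 CPM. *Hells*, a remodelling helicase, was near even at 201 against 177 CPM (1.13 times, 1.05 to 1.22). The strongest of the list were *Asf1b*, a histone chaperone, at 6.39 times, *Ticrr*, which starts origins, at 4.72 times and *Mcm10* at 2.92 times. The subunit genes of the MCM helicase, which unwinds DNA at the fork, stood lower or near even. *Mcm6* was lower in members at 56.6 against 82.5 CPM, a ratio of 0.69 (0.59 to 0.79), *Mcm2* stood at 0.70 (0.51 to 0.94), *Mcm3* at 0.73 (0.56 to 0.94), *Mcm4* at 0.78 (0.63 to 0.97), *Mcm5* at 0.92 (0.69 to 1.20) and *Mcm7* at 1.07 (0.85 to 1.33), the intervals of *Mcm5* and *Mcm7* including 1. The ratio of *Mcm6* lay between 0.32 and 0.96 under the other choices of nuclei, the latter among nuclei with at most 3 UMIs of other types. That choice takes largely different nuclei, since 90 of its 400 members are among the members described here, and it sets them against 672 others. Of the 400 progenitors with the highest share of replication UMIs, 172 were members, and of the 400 with the highest share of mitosis UMIs, 366 were. Of the 7 rule genes, 6 stood higher in the mitosis-leaning than in the replication-leaning members described below, so the rule favours mitosis transcripts. The larger overlap and larger summed ratio of the mitosis list thus follow in large part from the rule.

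Repair and histone genes lay between these blocks. Of 32 repair genes, 17 stood at least 2-fold higher, with a summed ratio of 2.17: *Rad51b* stood at 917 against 383 CPM (2.39 times), *Brip1* at 297 against 75.1 CPM (3.96 times) and *Parpbp* at 176 against 15.5 CPM (11.3 times). Of 68 histone genes, most of them replication-dependent, 15 had enough UMIs, and 13 of them stood at least 2-fold higher, the list standing at 659 against 244 CPM, 2.70 times more (2.56 to 2.84). *Hist1h2ap* stood at 81.1 against 25.1 CPM (3.23 times) and *Hist1h1e*, a linker histone, at 47.9 against 18.1 CPM (2.65 times). Histone genes of a cluster are near copies of each other and their messages mostly lack a poly(A) tail, so single histone genes are uncertain in a poly(A) library.

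Cyclins, E2F factors and their partners, 35 genes, included 20 at least 2-fold higher and 1 at least 2-fold lower. *Ccnf*, cyclin F, stood at 153 against 8.05 CPM and *Ccna2*, cyclin A2, at 54.1 against 8.13 CPM (6.65 times). The repressor E2F genes *E2f7* at 6.56 times and *E2f8* at 6.25 times, the activator *E2f2* at 5.12 times and *Foxm1*, the G2 transcription factor, at 6.50 times were all higher, whereas *E2f1* stood at 0.97 and *Cdk4* at 0.87. Of the 35 genes, 30 stood higher and 5 lower, the D cyclin genes *Ccnd2* and *Ccnd3* among the lower. *Ccnd2*, cyclin D2, which answers to growth factors in G1, was the gene past 2-fold lower, at 35.3 against 73.2 CPM, a ratio of 0.48 (0.40 to 0.57), and *Ccnd3* stood at 66.0 against 104 CPM, a ratio of 0.64 (0.56 to 0.72). *Ccnd2* lay between 0.30 and 0.62 under the other choices of nuclei. *Ccnd1* had 13 and 32 UMIs, too few to compare.

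Of the genes that restrain the cycle, most stood somewhat higher in members and within 2-fold, and a few stood far higher. Of 14 measured, 11 stood higher and 3 lower, with a summed ratio of 1.48 (1.41 to 1.55) for the list. The median log2 ratio was 0.14, where that of all genes was -0.08. *Cdkn3*, *Ccng2*, *Rbl1* and *Cdkn2c*, given below, carry much of the difference in the sum. At least 2-fold higher stood 3 of the 14, where 3.30% of all genes did so, and none was at least 2-fold lower. *Cdkn3*, a phosphatase that acts on CDKs, stood at 56.9 against 3.28 CPM (17.3 times), *Ccng2*, an unconventional cyclin that slows the cycle, at 56.4 against 18.6 CPM (3.02 times) and *Rbl1*, the p107 pocket protein, at 124 against 53.9 CPM (2.29 times). *Cdkn2c*, the CDK4/6 inhibitor p18, was at 18.3 against 1.31 CPM on 80 and 16 UMIs, under the minimum of 100. *Cdkn1b*, p27, was 1.57 times higher (1.26 to 1.96), *Rb1* 1.27 times and *Rbl2* 1.27 times, whereas *Cdkn1c*, p57, stood at 1.03 (0.74 to 1.42), *Trp53* at 1.03 and *Gas1* at 0.99. *Mxd4*, which opposes MYC, stood at 0.52 (0.40 to 0.66).

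The members were spread along the cycle. With every nucleus thinned to 2000 UMIs, members had a median of 9 replication UMIs and 19 mitosis UMIs, and the other progenitors 3 and 1. Over the 400 members the sums of replication and mitosis UMIs ran against each other, with a Pearson correlation of -0.44, whereas over the 1600 other progenitors they ran together at 0.59. Each correlation is a description over nuclei of 1 library chosen on cycle genes. Among the other progenitors, the 300 with the highest share of replication UMIs, a set chosen after the values were seen, had medians of 13 replication and 4 mitosis UMIs and stood at 204 CPM of *Top2a*, against 53.9 CPM in the remaining 1300. The comparison group therefore held nuclei with replication transcripts as well.

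**Figure D2:**
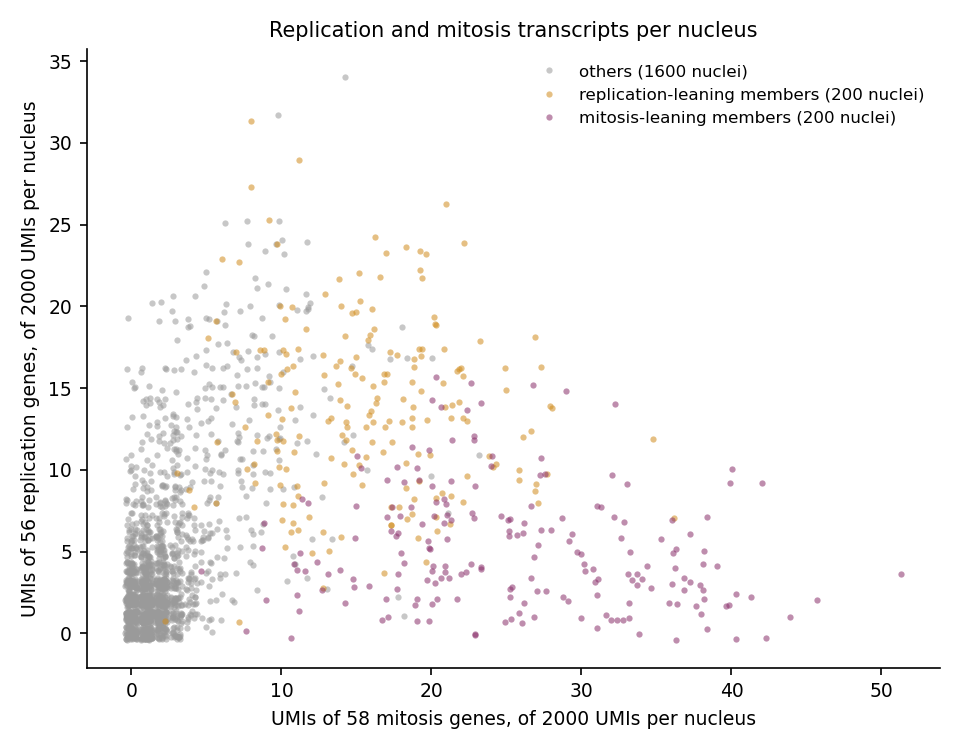
UMIs of 56 replication genes (vertical) against UMIs of 58 mitosis genes (horizontal) in each nucleus thinned to 2000 UMIs, one slightly jittered point per nucleus, for the replication-leaning members, the mitosis-leaning members and the other progenitors. Members run from the upper left to the lower right, with medians of 13 and 16 in the replication-leaning set and 4 and 25 in the mitosis-leaning set, and most other progenitors lie near the origin.

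To describe this spread, the members were divided in a replication-leaning and a mitosis-leaning set of 200 each by the share of replication UMIs in their replication and mitosis UMIs together. The last nucleus of the replication-leaning set had 32.3% and the first of the mitosis-leaning set 32.1%, so the division falls within a continuum. The replication and mitosis lists made the sets and their values say nothing further. Of 6071 other genes with at least 100 UMIs in members, 72 stood at least 2-fold higher in the mitosis-leaning set (1.19%) and 73 in the replication-leaning set (1.20%). The genes named next were chosen after their values were seen. *Pif1* led the mitosis-leaning set at 88.0 against 9.05 CPM (9.72 times), followed by *Cdc25b*, a phosphatase that activates CDKs, at 56 against 10.6 CPM (5.30 times), *Gas2l3*, which links actin and microtubules, at 182 against 36.2 CPM (5.01 times), *Kpna2*, an importin, at 4.79 times, *Cdkn3* at 88.9 against 18.6 CPM (4.77 times) and *Cenpa* at 267 against 57.8 CPM (4.62 times). In the replication-leaning set, *E2f2* stood at 51.3 against 8.84 CPM (5.80 times), *Ccne2*, a cyclin of S phase entry, at 56.3 against 13.5 CPM (4.18 times), *Dna2*, a nuclease and helicase, at 69.9 against 19.4 CPM (3.61 times) and *Hat1*, which acetylates new histone H4, at 242 against 83.4 CPM (2.90 times).

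By function, list genes with at least 30 UMIs in members, a lower minimum than above, were counted by direction. Of 9892 such genes outside the replication and mitosis lists, 50.9% were higher in the replication-leaning set and 49.1% in the mitosis-leaning set. Repair genes were higher in the replication-leaning set in 27 of 32 cases, 8 of them at least 2-fold, with a summed ratio of 1.58 (1.54 to 1.63). Histone genes were higher there in 21 of 23 cases, none at least 2-fold, with a summed ratio of 1.24 (1.15 to 1.33). Kinetochore genes were divided evenly by number, 18 and 18, while their sum was 1.24 times higher in the mitosis-leaning set (1.21 to 1.28). *Cenpe* stood at 848 CPM in the mitosis-leaning set and 393 CPM in the replication-leaning set, whereas *Cenpp* was higher in the replication-leaning set at 957 CPM against 745 CPM. Condensin and cohesin genes as a list stood at a ratio of 1.0 (0.98 to 1.02). Interstitial genes had a summed ratio of 0.98 (0.97 to 0.99) in the mitosis-leaning set over the replication-leaning set, although 22 of 32 were higher in the mitosis-leaning set and the median log2 ratio was 0.13. Most of the rule genes leaned to mitosis: *Cenpf* stood at 519 CPM in the mitosis-leaning set against 162 CPM in the replication-leaning set and *Mki67* at 723 CPM against 507 CPM, whereas *Top2a* was near even at 919 CPM against 880 CPM. The germ markers summed to 166 CPM in the replication-leaning and 91.4 CPM in the mitosis-leaning set. In germ-ranked nuclei they summed to 4062 CPM, and repair genes to 4210 CPM. The part of germ RNA in the differences between the sets was not tested.

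**Figure D3:**
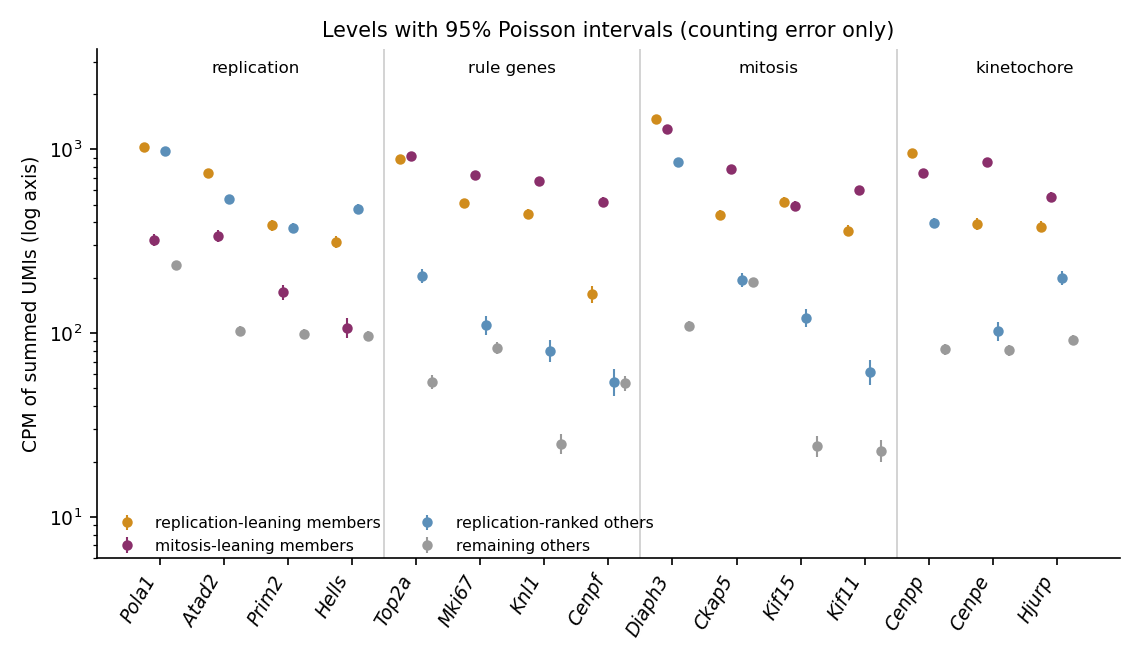
CPM of summed UMIs on a log axis for 15 genes of 4 lists, with exact 95% Poisson intervals, in replication-leaning members, mitosis-leaning members, the 300 replication-ranked other progenitors and the remaining 1300. *Pola1* is about as high in replication-ranked others (976) as in replication-leaning members (1032), whereas *Kif11* is high in both sets of members (361 and 600) and low in both sets of others (61.4 and 22.8). *Diaph3* of the mitosis list is instead higher in replication-leaning (1452) than mitosis-leaning members (1284), and in replication-ranked (856) than remaining others (109). *Kif15* is near even between the sets of members (517 and 492), and *Ckap5* is higher in the mitosis-leaning set (440 and 785). The replication and mitosis genes shown are in the lists that divided the members, and the replication list also ranked the others. The rule genes chose the members. Levels of these genes describe how the groups were made and are no finding.

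Outside the lists, the genes whose thinned counts followed the summed rule genes most closely over the 2000 nuclei were *Depdc1a* (Pearson correlation 0.54), *Lockd* (0.51), *Efcab11* (0.45), *Cip2a*, an inhibitor of the phosphatase PP2A (0.45), and *Depdc1b* (0.43). These correlations share the library and the choice of the 2000 nuclei. For comparison, *Kif11* and *Kif23* of the mitosis list each reached 0.59, while *Pola1* stood at 0.17 and *Hells* at 0.03.

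RNA of the hedgehog, Notch and growth factor receptor lists summed to nearly the same level in members and other progenitors, while single genes differed. Signalling itself was not measured. Over all genes 3.30% stood at least 2-fold higher and 1.40% at least 2-fold lower. A count of none past 2-fold in lists this short lies near that share. None of 12 hedgehog genes passed 2-fold, and their sum was 1.05 times that of the other progenitors (1.04 to 1.07): *Ptch1*, the receptor and a target of Desert hedgehog, stood at 939 against 988 CPM, *Gli2* at 381 against 364 CPM, *Hhip* at 386 against 372 CPM, and *Gli3* was the highest in ratio at 404 against 305 CPM (1.33 times, 1.25 to 1.40). Against others matched on UMIs, the hedgehog sum was 1.13 times (1.11 to 1.15) and *Ptch1* stood at 1.08 (1.03 to 1.13). None of 9 Notch genes passed 2-fold, with a summed ratio of 1.0 (0.97 to 1.03). *Notch2* stood at 286 against 268 CPM, *Notch3* at 165 against 172 CPM and *Jag1*, a ligand, at 118 against 149 CPM (0.79 times, 0.72 to 0.87), while *Hes1*, a target, stood at 32.5 against 24.6 CPM (1.33 times, 1.08 to 1.62). None of 30 growth factor receptor and mitogen pathway genes passed 2-fold, with a summed ratio of 0.99 (0.97 to 1.0): *Igf1r* stood at 1000.1 against 986 CPM and *Ghr* at 985 against 986 CPM, and the lowest of those named was *Tgfbr2* at 33.9 against 50.6 CPM (0.67 times, 0.56 to 0.80). The 31 measured collagen genes summed to 0.90 times, with 1 past 2-fold lower. Genes of ribosomal proteins were lower in 75 of 76 cases, by a summed ratio of 0.83 (0.82 to 0.84), where the median log2 ratio of all genes was -0.08. Their ratio was 0.88 (0.87 to 0.89) against others matched on UMIs.

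Leydig genes were lower in members. Of 20 Leydig genes, 19 stood lower than in the other progenitors and 5 at least 2-fold lower, where 1.40% of all genes were, with a median log2 ratio of -0.72 and a summed level of 2615 against 4113 CPM, a ratio of 0.64 (0.62 to 0.65). *Cyp11a1*, which cuts the side chain of cholesterol, stood at 48.1 against 102 CPM (0.47 times, 0.41 to 0.55), *Fdx1*, its electron donor, at 34.4 against 71.9 CPM (0.48 times), *Lhcgr*, the luteinizing hormone receptor, at 39.2 against 79.5 CPM (0.49 times), *Cyp17a1* at 175 against 273 CPM (0.64 times), *Star*, the cholesterol carrier, at 20.6 against 30.1 CPM (0.68 times) and *Prlr*, the prolactin receptor, at 348 against 666 CPM (0.52 times). *Nr5a1*, the steroidogenic factor whose Cre transgene these embryos carry, stood at 40.6 against 51.6 CPM (0.79 times, 0.66 to 0.93). All 20 genes of cholesterol synthesis stood lower, 1 of them at least 2-fold, with a summed ratio of 0.68 (0.65 to 0.71): *Hmgcs1* stood at 83.0 against 145 CPM (0.57 times) and *Lss*, lanosterol synthase, at 11.5 against 27.0 CPM (0.42 times).

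Beside these values stand the Leydig markers in nuclei ranked for other types and the spread over nuclei. The 6 Leydig markers summed to 353 CPM in members, 572 CPM in the other progenitors and 7063 CPM in Leydig-ranked nuclei. They summed to 349 CPM in Sertoli-ranked and 170 CPM in germ-ranked nuclei. The markers include *Nr5a1*, which Sertoli cells also make, since the paper reports weak NR5A1 staining in them. The part of RNA from other cells in these levels was not tested. In the other progenitors the 5% of nuclei with most Leydig UMIs held 42.5% of all Leydig UMIs, and in members 26.4%, so more of the level of the other progenitors sat in few nuclei. Per nucleus thinned to 2000 UMIs, the median was 4 Leydig UMIs in members and 5 in the other progenitors. The 300 replication-ranked other progenitors stood at 2834 CPM for the 20 genes, near the members, and the remaining 1300 at 4459 CPM. Against 400 other progenitors matched on UMIs the ratio was 0.49, and among nuclei with at most 3 UMIs of other cell types it was 0.79. Among those nuclei, from which Leydig UMIs had been limited by their own selection and which share 90 members with the main choice, *Star* stood at 1.33 times (0.75 to 2.37) rather than 0.68 times and *Lhcgr* at 1.24 times (0.87 to 1.77) rather than 0.49 times. *Cyp11a1* stood there at 0.55 times (0.35 to 0.85), an interval that includes the 0.47 of the main choice.

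Of the 10 lowest ratios among genes of at least 50 CPM, 9 belonged to genes more abundant in Leydig-ranked nuclei than in either group. The share of all such genes that are more abundant in Leydig-ranked nuclei is not given here, so this count only describes the 10. *Fam129a* stood at 29.3 CPM in members, 99.9 CPM in the other progenitors (0.29 times) and 2264 CPM in Leydig-ranked nuclei, *Nckap5* at 63.3, 200.3 and 5120.1 CPM (0.32 times) and *Kcnip4*, a potassium channel partner, at 86.2, 265 and 6781 CPM (0.33 times). Under the other choices of nuclei, *Nckap5* lay lowest at 0.15 times (0.11 to 0.19), with 200 members. It lay highest at 0.63 times (0.51 to 0.77), among nuclei with at most 3 UMIs of other types. *Pde10a*, a phosphodiesterase, stood at 0.38 times and *Elmo1*, an engulfment protein, at 0.46 times, and the non-coding genes *8030451A03Rik* and *6330411D24Rik* both at 0.36 times. *4930447C04Rik* at 0.45 times was instead most abundant in germ-ranked nuclei, at 2562 CPM, and the germ markers *Ddx4* (0.29 times, on 27 and 263 UMIs) and *Dazl* (0.48 times) were also lower in members.

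The ATAC library did not enter the ranking of members beyond the minimum of 500 cuts. Members had a median of 6152 fragments, against 4571.5 in the other progenitors, a ratio of 1.35, where the ratio in UMIs was 1.49, and 1.22 against the 400 other progenitors matched on UMIs. In total members held 2775378 fragments and the other progenitors 7730436. The quartiles of members lay at 3253 and 9081 fragments and those of the other progenitors at 2586 and 5954, so the groups overlap. The median share of fragments at peaks was 40.8% in members and 40.9% in the other progenitors. It differed more within members, at 38.7% in the replication-leaning set and 42.4% in the mitosis-leaning set, which had medians of 6078 and 6475 fragments.

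DNA in gene-rich regions is, as background, copied earlier in S phase than DNA in gene-poor regions, and the fragments were compared between both kinds of region. Of 1807 autosomal bins of 1 Mb, 640 with at least 16 gene starts were called gene-rich and 627 with at most 8 gene-poor. Members had 2.13 fragments in gene-rich bins for each in gene-poor bins, and the other progenitors 2.12. The equal totals covered a difference between the sets. The replication-leaning set stood at 2.24 (2.23 to 2.25) and the mitosis-leaning set at 2.04 (2.03 to 2.05), a ratio of 1.10, and outside peaks at 1.74 and 1.48, a ratio of 1.17. Per nucleus, the replication-leaning set had a median of 2.25 with quartiles of 2.08 and 2.42, and the mitosis-leaning set a median of 2.02 with quartiles of 1.89 and 2.19, so single nuclei of the sets overlap. The 300 replication-ranked other progenitors stood at 2.11 and the remaining 1300 at 2.12, and outside peaks at 1.62 and 1.6. Germ-ranked, Sertoli-ranked and Leydig-ranked nuclei stood at 2.33, 2.46 and 2.45. The RNA alone divided the sets, and the share of fragments at peaks, given above, differed between them in the opposite order.

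**Figure D4:**
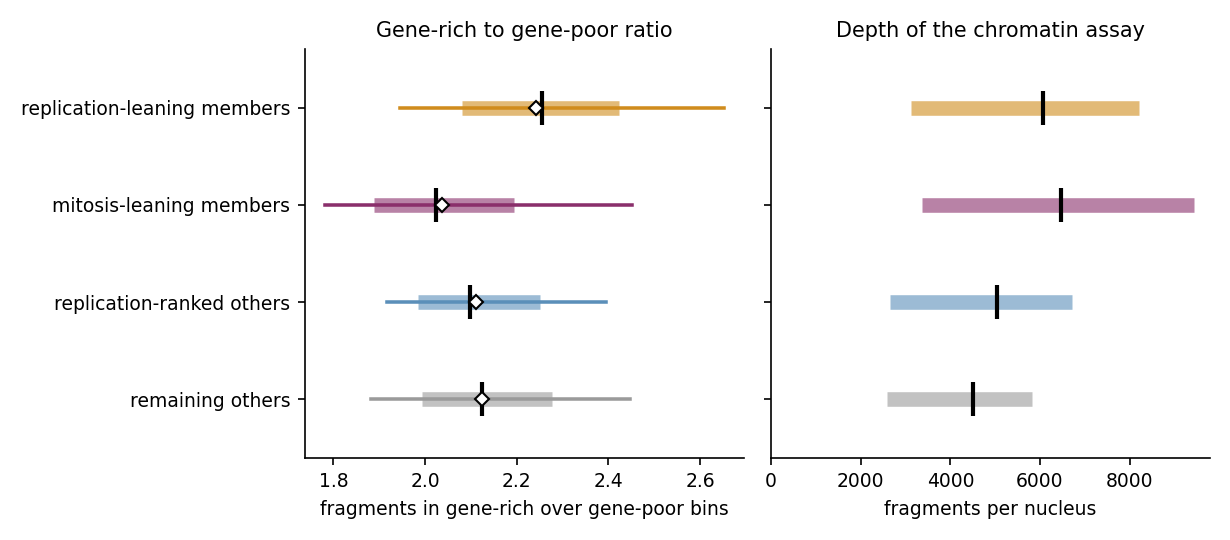
Fragments in gene-rich bins for each fragment in gene-poor bins, per nucleus, in the replication-leaning and mitosis-leaning members, the replication-ranked others and the remaining others (left; bar for the quartiles, line for the 10th to 90th percentile, black tick for the median, diamond for the pooled value), and fragments per nucleus of the same groups (right; bar for the quartiles, tick for the median). The replication-leaning set has a median of 2.25, the mitosis-leaning set 2.02, and both sets of other progenitors 2.10 and 2.12 in between.

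At promoters, the members had more fragments at cell cycle genes than the other progenitors had, by far less than the RNA differed. Fragments with an end within 500 bp of the start of a replication or mitosis gene numbered 2181 per 1000000 fragments in members and 1888 in the other progenitors, a ratio of 1.16 (1.12 to 1.19), where all tested genes together stood at 1.01. Mitosis genes alone stood at 1.22 (1.17 to 1.27), higher in 52 of 57 genes with enough fragments, and replication genes at 1.10 (1.05 to 1.14), higher in 35 of 54, where 4794 of all 9509 genes were higher. Kinetochore genes stood at 1.09 (1.04 to 1.15). The 7 rule genes, whose RNA but not chromatin chose the members, were all higher with a summed ratio of 1.38 (1.22 to 1.56). Histone genes stood at 1.49 (1.42 to 1.56), although clustered histone genes share fragments. Interstitial genes stood at 1.03 (0.95 to 1.11) and Leydig genes at 0.95 (0.85 to 1.07). Among single genes, *Mki67* had 92 fragments in members and 145 in the other progenitors, 1.77 times when scaled to depth (1.35 to 2.31), *Ccnf* stood at 1.60 times (1.23 to 2.06), *Top2a* at 1.56 times (1.10 to 2.20), *Kif15* at 1.50 times (1.03 to 2.16), *Cenpf* at 1.40 times (1.04 to 1.88) and *Kif11* at 1.39 times (1.01 to 1.90). *Diaph3* at 1.25 times (0.85 to 1.81), *Ckap5* at 1.23 times (0.84 to 1.79), *Pola1* at 0.99 times (0.58 to 1.63) and *Hells* at 0.78 times (0.48 to 1.21) had intervals that include 1. Within members, mitosis promoters held 1216 per 1000000 fragments in the mitosis-leaning set and 975 in the replication-leaning set, and replication promoters 1081 and 1079, while the promoters of all tested genes held 161995 and 146298.

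**Figure D5:**
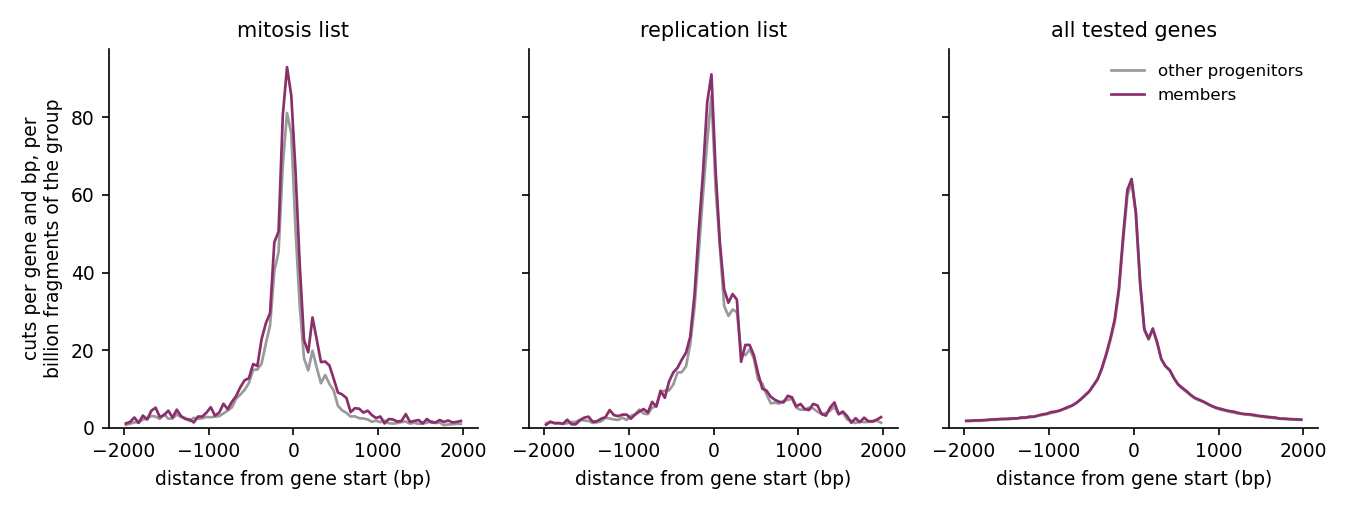
Transposase cuts per gene and base pair, per 1000000000 fragments of the group, by distance from the gene start in bp, for autosomal genes of the mitosis list, the replication list and all tested genes, in members and the other progenitors. At the peak just before the start, members reach 92.9 and the other progenitors 81.1 in the mitosis list, 91.1 and 85.6 in the replication list, and 64.1 and 63.3 over all tested genes.

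The promoters of the mitosis and replication genes differ in letters as well. Windows of 250 bases before and 50 after the gene start, as RefSeq gives it on GRCm38.p6, were searched on both strands for the CCAAT box (CCAAT), the CHR element (TTTGAA or TTCGAA) and an E2F site (GGCGGGAA or GGCGCGAA). None of these letter strings contains another, and a match is a description, not a site. The CHR letters were found in 35 of 49 windows of mitosis genes (71.4%), 14 of 31 of kinetochore genes (45.2%) and 8 of 46 of replication genes (17.4%), where 18.0% of all 20267 windows held them. CCAAT was found in 71.4% of mitosis, 64.5% of kinetochore and 56.5% of replication windows, and in 38.4% of all. CCAAT and CHR letters occurred together in 59.2% of mitosis, 35.5% of kinetochore and 15.2% of replication windows, and in 7.32% of all. The E2F letters were in 14 of 46 replication windows (30.4%), 6 of 31 kinetochore windows (19.4%) and 1 of 49 mitosis windows (2.04%), and in 3.37% of all.

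Shown here are the windows of the rule or mitosis genes with the most UMIs and of the most abundant replication genes with a window, since the chromatin values above were taken around the starts of these genes, within 500 bp rather than in the shorter window. The start RefSeq gives lies 18 bp from the deposited one for *Mki67* and 75 bp for *Hells*, and at the same base for the other genes shown. Capitals mark the letters of the CCAAT box or CHR on either strand, and each window is printed in the direction of its gene, 5′ to 3′. *Diaph3* lies at chr14:87141175-87141474 on the minus strand, *Ckap5* at chr2:91526512-91526811 on the plus strand, *Top2a* at chr11:99024140-99024439 on the minus strand, *Mki67* at chr7:135716330-135716629 on the minus strand, *Pola1* at chrX:93632106-93632405 on the minus strand and *Hells* at chr19:38930740-38931039 on the plus strand.
Top2a: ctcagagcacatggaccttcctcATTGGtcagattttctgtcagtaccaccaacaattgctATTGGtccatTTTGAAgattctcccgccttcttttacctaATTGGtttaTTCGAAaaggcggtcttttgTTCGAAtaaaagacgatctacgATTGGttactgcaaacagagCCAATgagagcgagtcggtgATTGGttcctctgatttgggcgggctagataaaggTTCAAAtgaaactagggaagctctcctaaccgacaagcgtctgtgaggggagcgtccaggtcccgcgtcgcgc
Mki67: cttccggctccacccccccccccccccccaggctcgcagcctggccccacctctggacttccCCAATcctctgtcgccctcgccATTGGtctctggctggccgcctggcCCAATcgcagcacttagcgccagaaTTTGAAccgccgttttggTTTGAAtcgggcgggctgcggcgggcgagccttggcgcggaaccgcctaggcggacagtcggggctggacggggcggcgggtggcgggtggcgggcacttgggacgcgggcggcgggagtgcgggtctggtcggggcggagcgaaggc
Diaph3: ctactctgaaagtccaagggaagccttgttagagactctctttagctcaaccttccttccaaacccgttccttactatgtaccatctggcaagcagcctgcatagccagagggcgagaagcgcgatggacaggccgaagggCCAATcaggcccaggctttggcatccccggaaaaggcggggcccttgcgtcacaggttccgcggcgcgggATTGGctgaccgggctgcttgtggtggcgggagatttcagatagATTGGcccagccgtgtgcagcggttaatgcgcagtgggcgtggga
Ckap5: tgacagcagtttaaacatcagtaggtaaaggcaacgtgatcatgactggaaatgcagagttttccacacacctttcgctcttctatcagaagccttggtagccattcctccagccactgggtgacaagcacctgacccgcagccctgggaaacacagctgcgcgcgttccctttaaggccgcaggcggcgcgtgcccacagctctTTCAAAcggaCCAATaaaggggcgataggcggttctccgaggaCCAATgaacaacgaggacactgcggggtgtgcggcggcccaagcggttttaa
Pola1: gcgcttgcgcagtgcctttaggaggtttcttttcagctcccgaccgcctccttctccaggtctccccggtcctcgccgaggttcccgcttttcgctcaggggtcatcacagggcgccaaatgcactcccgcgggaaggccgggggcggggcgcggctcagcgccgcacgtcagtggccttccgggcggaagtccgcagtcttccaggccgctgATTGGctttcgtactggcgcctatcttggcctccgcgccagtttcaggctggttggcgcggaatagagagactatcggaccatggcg
Hells: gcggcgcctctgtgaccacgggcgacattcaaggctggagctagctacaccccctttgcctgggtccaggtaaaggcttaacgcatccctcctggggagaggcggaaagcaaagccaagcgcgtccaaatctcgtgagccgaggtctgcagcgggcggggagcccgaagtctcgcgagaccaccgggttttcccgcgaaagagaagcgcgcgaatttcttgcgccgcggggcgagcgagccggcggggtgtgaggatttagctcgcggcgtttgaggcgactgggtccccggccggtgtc
The *Top2a* window held 6 CCAAT boxes and 4 CHR letter strings, and that of *Mki67* 3 and 2. *Ckap5* had 2 CCAAT boxes and 1 CHR, and *Diaph3* 3 CCAAT boxes without CHR letters. *Pola1* had 1 CCAAT box and *Hells* none of the strings searched, which says only that these exact letters are not in the window. *Atad2* and *Prim2*, other replication genes with many UMIs, had no window in the table used.

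Over single peaks the data were thin. Of 48807 peaks with at least 40 cuts in both groups together, 1029 stood at least 2-fold higher in members (2.11%) and 3094 at least 2-fold lower (6.34%). A peak at the minimum holds few cuts in members, and counting error alone was not separated from these counts. The highest ratio was at chr8:108829010-108830028 in mm10, in an intron of *Zfhx3*, with 30 cuts from 13 members and 20 cuts from 10 other progenitors, or 4.20 times when scaled to all cuts (2.31 to 7.80), before intronic peaks of *Dock9* (4.04 times), *Skap2* (3.95 times) and *Cemip* (3.94 times) and a peak over an exon of *Manba* (3.95 times). The 5 lowest had 0 cuts in members and 40 to 44 in the other progenitors. Both ends of a fragment can be counted, so these intervals are too narrow.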

How the data were processed

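The authors ran Cell Ranger ARC 2.0.1 on mm10 and deposited its raw counts (UMIs per gene, transposase cuts per peak) and the fragment list, before their own filters on quality, doublets and ambient RNA. Per the file headers the fragment list holds unique fragments with a count of read pairs. The members and lists were chosen with earlier results of these data known. Here UMIs were summed per group and scaled to CPM, levels carrying exact Poisson and ratios exact conditional binomial 95% intervals. No test was run, since each assay has 1 library. Named genes were the 15 highest and 10 lowest ratios (at least 100 UMIs, 50 CPM), the leading genes of each list, the 5 highest and lowest peaks, and the 5 genes most alike outside the lists; further genes were named after their values were seen. Reference nuclei were the 300 ranking highest for germ, Sertoli or Leydig markers. Promoter fragments had an end within 500 bp of the 5′-most start. Doublets were scored with Scrublet (scanpy 1.11.5) and not removed in the main values. Simulated counts were used to check the ratios and intervals. Python 3.11.15, numpy 2.4.6, scipy 1.17.1, and edgeR 4.0.16 for TMM factors were used. Some members of the lists are counted but not reported here by name.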

Additional observations from a re-analysis of the deposited data

How the results depend on the processing

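No paired analysis was possible because each assay has 1 sample. Of the 5 lists followed through all choices of nuclei, the summed interstitial ratio lay on both sides of 1. Against matched others the ratios of growth factor receptors (0.99), Notch genes (1.0) and testicular epithelium (1.11) were 1.01, 1.02 and 0.95. Those of hedgehog genes (1.05), mesonephric markers (1.25) and ribosomal protein genes (0.83) were 1.13, 1.12 and 0.88. Of 15 single genes followed through the choices of nuclei, *Star* (0.68) and *Lhcgr* (0.49) stood at 1.33 and 1.24 without nuclei of over 3 UMIs of other types, a choice that shares 90 of 400 members, *Ptch1* (0.95) lay between 0.92 and 1.08, and *Cdkn1c*, *Gli1* and *Tcf21*, whose intervals include 1, also crossed it. Genes at least 2-fold higher numbered 347 and were between 233 and 425 except with every gene of at least 1 UMI counted, which gave 2299. Genes lower numbered 147, but 513 with 200 members, 313 with 600 members from a pool of 3000, 293 at 4000 UMIs or more, 37 without nuclei of over 3 UMIs of other types, 34 at 300 UMIs per gene and 5102 at 1 UMI.

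With 200 members, 600 of 3000, at least 4000 UMIs, the 6% highest doublet scores left out, nuclei over 3 other-type UMIs left out, ranking at 2000 UMIs, matched others and the mean of nuclei's own CPM, in this order, the replication ratio (1.65) was 1.35, 1.49, 1.47, 1.69, 2.09, 1.55, 1.45 and 2.01, the mitosis ratio (7.13) was 9.41, 5.42, 6.27, 8.21, 9.20, 6.72, 5.93 and 9.28, and the Leydig ratio (0.64) was 0.61, 0.55, 0.57, 0.60, 0.79, 0.67, 0.49 and 0.71, with 0.65 without the contractile limit. With 200 members, 600 of 3000, at least 4000 UMIs, other-type nuclei left out, matched others and nuclei's own CPM, the ratio of cycle inhibitors (1.48) was 1.6, 1.34, 1.40, 1.40, 1.40 and 1.61, and the interstitial ratio (0.99) was 1.01, 1.02, 1.03, 0.94, 1.06 and 0.96. The ratio of median fragments (1.35) was 1.14 without other-type nuclei and 1.22 with matched others. The promoter ratio (1.16) was 1.26 with 200 members and 1.09 without other-type nuclei. The replication-leaning over the mitosis-leaning members in gene-rich to gene-poor fragments (1.10) was 1.05 with 200 members, 1.08 with 600, 1.08 at 4000 UMIs, 1.13 without doublet scores, 1.05 without other-type nuclei, 1.09 ranked at 2000 UMIs and 1.17 outside peaks, all but the first of these chosen after the data were seen. The cause of these shifts was not tested. The single library limits every value, and depth limits single peaks and genes near 100 UMIs.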
